A study of Ovis aries with 15 samples.

Results

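Glutathione transferases join glutathione to reactive compounds. Aflatoxin B1 (AFB1) is oxidised to an epoxide that binds DNA and protein, and conjugation of that epoxide with glutathione is the main step that removes it. The cytosolic classes, alpha and zeta among them, the kappa class of mitochondria and peroxisomes and the microsomal enzymes of the MAPEG family are separate protein families with this activity in common, and AKR7A2, an aldo-keto reductase, reduces the aldehydes that AFB1 gives when its epoxide is hydrolysed. A set of 10 gene names was examined: GSTA1 and its neighbour LOC121817434 of the alpha class, GSTM3 of the mu class, GSTO1 of the omega class, GSTK1, GSTZ1, the microsomal MGST1, MGST2 and MGST3, and AKR7A2. The members were the rows of the expression table that carried one of these names. Of the 10, 8 had a row among the 25592 genes. GSTM3 and GSTO1 had no row under these names and were not analysed as members. Rows described as mu 3 and omega-1 were read among the further family rows below.

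The libraries were RNA-seq labelled as sheep kidney, made from poly(A) RNA. The study kept male Dorper × Small-tailed Han crossbred sheep, 4 months old, on a mixed ration for 21 d. The CON group received the ration alone. AFB1 was mixed in at 500 µg/kg of dry matter for the AFB1 group. The AFB1_CUR group had that dose of AFB1 together with curcumin (CUR) at 800 mg/kg of dry matter. There were 5 libraries in each group, and no group received CUR without AFB1, so the effect of CUR could be read only on top of AFB1. In whole kidney, fewer cells of a type and less RNA per cell cannot be told apart.

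The tissue label was checked first. The total count per library ranged from 50255295 to 68747047. In AFB1 replicate 1, the summed level of the 19 hepatocyte markers with a row was 56050 FPKM (fragments per kilobase of transcript, scaled to sequencing depth), against 92.1 to 311 FPKM in the other 14 libraries. The summed level of 8 proximal tubule markers was 2.79 FPKM there, against 852 to 2562 FPKM elsewhere. The markers of kidney were thus nearly absent from the library labelled AFB1 replicate 1. It is shown apart throughout. The fold changes of the members are plotted with and without it, but the text does not give both for every member or setting. The leukocyte markers were highest in AFB1_CUR replicate 2, at 155 FPKM summed over 5 genes, and in AFB1 replicate 2, at 97.0 FPKM, against 9.72 to 36.8 FPKM in the other 13 libraries.

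A gene was called when its fold change was over 1.5 and its p under 0.05 in edgeR's quasi-likelihood test. The study screened genes with the same thresholds but with DESeq2, and whether its p was adjusted is not given in the sources used here. After Benjamini-Hochberg adjustment over the 13193 tested genes, this test called 0 genes in every comparison. The numbers at an unadjusted p under 0.05 were 1071 for AFB1 vs CON, 765 for AFB1_CUR vs AFB1 and 360 for AFB1_CUR vs CON, and DESeq2 called 7, 2 and 1 genes after adjustment, no member among them. All calls below are therefore unadjusted. All 8 members with a row were tested.

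In the CON kidneys the members differed widely in level. GSTK1, an enzyme of mitochondria and peroxisomes, had 113 ± 22.0 FPKM (SD, n = 5). MGST1, a membrane-bound transferase and peroxidase, had 103 ± 27.5 FPKM. GSTA1, an alpha class enzyme of tubule and liver, had 102 ± 38.6 FPKM. These 3 could not be ordered, since their ranges overlapped. AKR7A2 had 41.7 ± 3.66 FPKM and MGST2, which also makes leukotriene C4, had 40.1 ± 10.5 FPKM, and their ranges overlapped too. GSTZ1, which isomerises maleylacetoacetate in tyrosine breakdown, had 17.2 ± 1.27 FPKM. MGST3 followed at 7.65 ± 1.70 FPKM, although its counts in CON, 4188 to 6953, were above those of MGST2, 1191 to 2004, and GSTZ1, 2556 to 3647. Its place thus rests on the gene lengths behind the FPKM values, which were not examined here. LOC121817434 was lowest at 1.40 ± 1.29 FPKM. The spread over the 5 CON libraries also differed between the members. The coefficient of variation was 7.38% for GSTZ1 and 8.76% for AKR7A2, and 92.6% for LOC121817434.

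**Figure D1:**
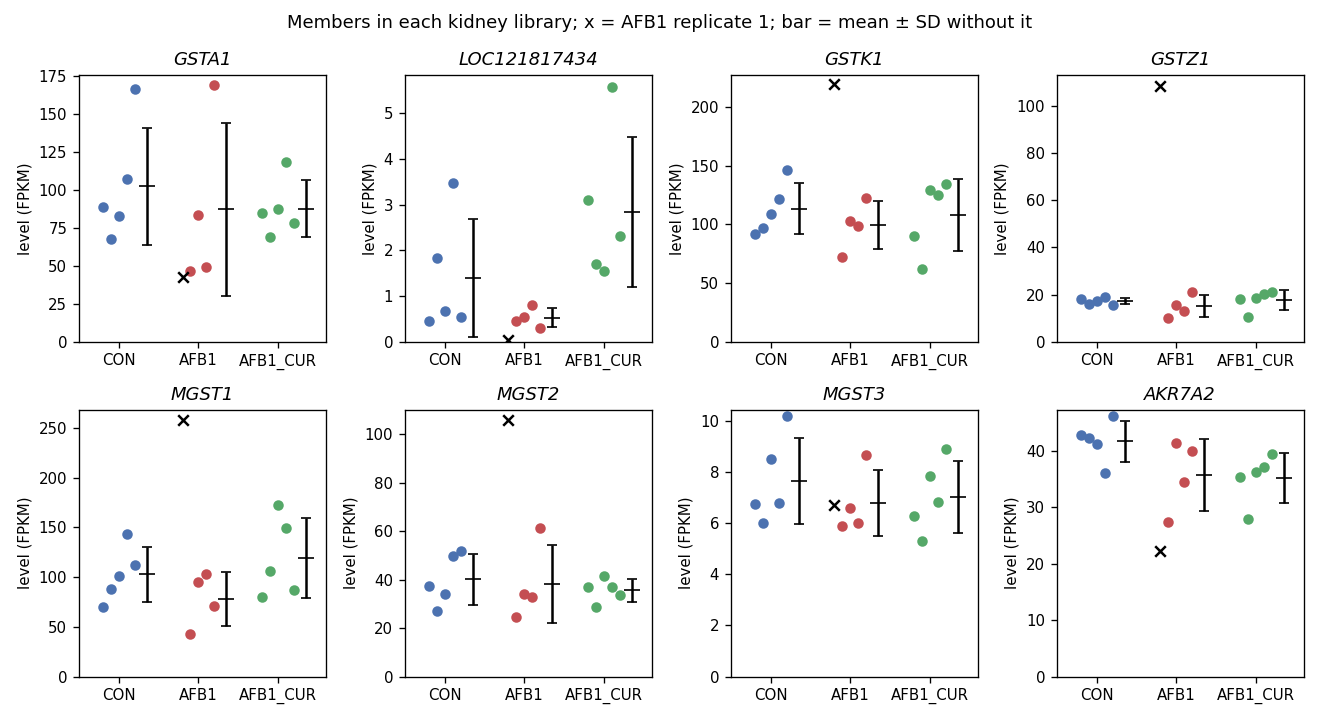
Level of each member in FPKM (vertical axis, linear, from 0) in every library of the CON, AFB1 and AFB1_CUR groups. Each dot is a library, the cross is AFB1 replicate 1, and the bar gives the mean ± SD without that library. The cross lies above all dots for GSTK1, GSTZ1, MGST1 and MGST2, and the 5 AFB1_CUR dots of LOC121817434 lie above every AFB1 dot.

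LOC121817434 was the member that differed most between the groups. The annotation describes it as similar to GSTA1. It lies on the minus strand of chromosome 20, from 24766932 to 24790562, and GSTA1 follows on the same strand from 24792990 to 24807956, 2427 bases away. The positions are those of the deposited table, which matched the start and end in assembly ARS-UI_Ramb_v3.0 for 99.6% of the gene names found in both. Both belong to a run of 6 alpha class rows: GSTA1-1, LOC121817434, GSTA1, LOC101106720, LOC101106976 and LOC101107232. Reads of such near copies can be shared or misplaced between rows, and the tool that counted them is not given in the sources used here. Which copy the reads of LOC121817434 came from is therefore uncertain.

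In the CON libraries, LOC121817434 had 0.444, 1.83, 0.677, 3.48 and 0.541 FPKM in replicates 1 to 5. In the AFB1 libraries it had 0.0294, 0.453, 0.546, 0.796 and 0.297 FPKM, the first of them the library without kidney markers. In the AFB1_CUR libraries it had 3.09, 1.70, 1.54, 5.56 and 2.30 FPKM. The lowest AFB1_CUR library thus stood above the highest AFB1 library, whereas the CON libraries spanned both groups. The counts behind these values were 213 to 1252 in CON, 127 to 306 in the 4 other AFB1 libraries and 611 to 2158 in AFB1_CUR, and AFB1 replicate 1 had a count of 12. A gene was tested when it reached 1 FPKM in 5 or more libraries. LOC121817434 did so in 5 AFB1_CUR, 2 CON and 0 AFB1 libraries, so it passed this filter only through the group in which it was highest.

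LOC121817434 in AFB1_CUR vs AFB1 was higher by 2.69 ± 0.71 on the log2 scale (SE), with a 95% CI of 1.16 to 4.22, and was called (edgeR adjusted p = 0.785). With AFB1 replicate 1 left out, the difference was 2.40 ± 0.64 (95% CI 1.02 to 3.78) and was called (edgeR adjusted p = 0.9999). An exact two-sided permutation test on log2(FPKM + 1) gave p = 0.00794 with and without that library, the smallest p that these numbers of libraries allow. This test does not use the filter, but the member was chosen with earlier results of these data known, so the p is not independent support. The call held in 25 of 25 alternatives, most of which share that filter, each of the 15 libraries left out in turn among them, at log2 fold changes of 2.27 to 3.06 in the latter. DESeq2 gave an adjusted p of 0.112 with all libraries and 0.0609 without AFB1 replicate 1. Without the filter on low values, the log2 fold change was 2.70 and was called, beside 6.24% of 25592 genes. Of the genes that passed the filter, 0.47% had every AFB1_CUR library above every AFB1 library, and 0.568% without AFB1 replicate 1, but LOC121817434 entered this set through its AFB1_CUR values, so the share is no measure of how rare its pattern is.

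In AFB1 vs CON, LOC121817434 was lower, by a log2 fold change of -1.71 ± 0.69 (SE; 95% CI -3.19 to -0.23; edgeR adjusted p = 0.596), and was called. It was -1.43 ± 0.62 (95% CI -2.75 to -0.10) without AFB1 replicate 1 and was called again. The call was lost without CON replicate 4, the control with the highest level, at a log2 fold change of -0.99, and without AFB1 replicate 5, at -1.63. It was also lost with voom and sample quality weights, at -0.99, and by limma on log2(FPKM + 1), at -0.63, a scale that shrinks the change of low genes. The exact two-sided permutation test gave p = 0.127, and p = 0.262 without AFB1 replicate 1. In AFB1_CUR vs CON, the log2 fold change was 0.98 ± 0.68 (95% CI -0.46 to 2.43, edgeR) and was not called. It was 0.57 without AFB1_CUR replicate 4, and 1.70 and called without CON replicate 4. It was called in 5 of 25 alternatives, the others being limma on log2(FPKM + 1) at 0.74, voom at 1.23 and the replicate block at 1.35, or 1.21 without AFB1 replicate 1. AFB1 vs CON and AFB1_CUR vs AFB1 share the AFB1 libraries and are not independent.

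GSTA1 itself was not called in any comparison with all libraries. It had 88.8, 67.3, 82.6, 107 and 167 FPKM in CON, 42.9, 46.8, 83.6, 49.5 and 169 FPKM in AFB1, and 84.8, 68.9, 87.4, 118 and 78.3 FPKM in AFB1_CUR. The highest library of all 15 was AFB1 replicate 5 and the groups overlapped. In FPKM the lowest was AFB1 replicate 1, whereas it was AFB1 replicate 2 in TMM CPM, the read counts scaled to library size with the factors of the edgeR test and not by gene length. Its log2 fold change in AFB1_CUR vs AFB1 was -0.02 (95% CI -0.82 to 0.77, edgeR), and in AFB1 vs CON it was -0.26 (95% CI -1.06 to 0.53). Without AFB1 replicate 1 these were -0.09 (95% CI -0.93 to 0.75) and -0.20 (95% CI -1.05 to 0.65), and neither was called. The estimate in AFB1 vs CON was -0.77 and called without AFB1 replicate 5, the highest library. It was -0.02 without CON replicate 5, the highest control. The count of LOC121817434 was 5.99% to 15.9% of the GSTA1 count in AFB1_CUR, 0.24% to 5.46% in AFB1 and 1.10% to 11.02% in CON. The AFB1_CUR shares were above all AFB1 shares, but they rest on the same LOC121817434 counts and are no further support. When the counts of both genes were summed to 1 row, the log2 fold change in AFB1_CUR vs AFB1 was 0.10 and was not called.

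**Figure D2:**
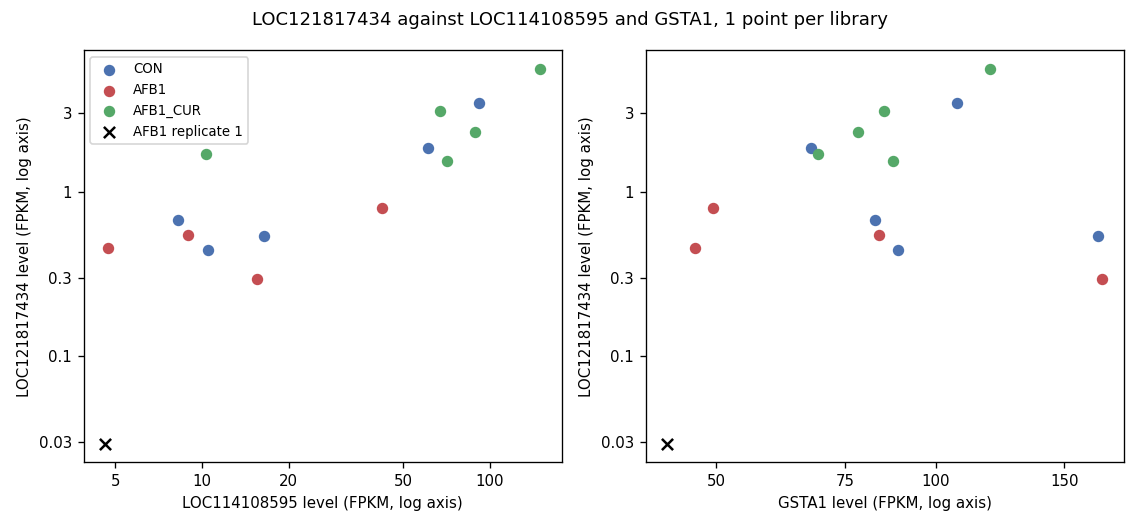
Level of LOC121817434 (vertical log axis, FPKM) against that of LOC114108595 (left) and GSTA1 (right; horizontal log axes, FPKM), with 1 point per library coloured by group and AFB1 replicate 1 as a cross. The points rise together on the left, where the 5 AFB1_CUR points lie between 1.54 and 5.56 FPKM for LOC121817434, and show no such rise on the right.

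The row whose pattern was most like that of LOC121817434 was another alpha class row, LOC114108595, with a Pearson r of log2(FPKM + 1) of 0.834 over the 14 libraries other than AFB1 replicate 1 (Spearman rho 0.763). It lies on chromosome 7, from 98437319 to 98438143, a span of 825 bases, and is annotated as GSTA1 isoform X1. Reads could also be shared or misplaced between this row and those on chromosome 20, which was not tested. Next came LOC101106394, a zinc finger row (r = 0.793), and LOC101122142, a butyrophilin-like row (r = 0.756). The r with its neighbour GSTA1 was 0.0493. These rows were the highest of all tested genes by r, so the values are a description. Libraries of the same group share a diet and are not independent of it.

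LOC114108595 had 10.5, 61.2, 8.23, 91.9 and 16.4 FPKM in CON and 4.61, 4.71, 8.94, 42.1 and 15.6 FPKM in AFB1. In AFB1_CUR it had 67.0, 10.3, 71.3, 150 and 88.9 FPKM. With AFB1 replicate 1 left aside, the values left a gap between 16.4 and 42.1 FPKM, with 2 CON, 1 AFB1 and 4 AFB1_CUR libraries above it, and the r with LOC121817434 was taken across this gap. Within the 7 libraries above the gap the r was 0.905, and within the 7 below it the r was -0.0643. LOC114108595 in AFB1_CUR vs AFB1 was higher by 2.24 ± 0.84 on the log2 scale (95% CI 0.44 to 4.04, edgeR), and by 2.06 ± 0.89 without AFB1 replicate 1 (95% CI 0.14 to 3.97), and was called in both. It was 1.83 and not called without AFB1_CUR replicate 4. AFB1_CUR replicate 2 lay among the low libraries, so the groups overlapped.

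GSTZ1 was the other member called, and its calls needed AFB1 replicate 1. It had 18.0, 16.2, 17.4, 18.8 and 15.7 FPKM in CON, 108, 10.2, 15.8, 12.8 and 21.1 FPKM in AFB1, and 18.0, 10.4, 18.6, 20.4 and 21.02 FPKM in AFB1_CUR. With all libraries, the log2 fold change was 1.45 ± 0.67 in AFB1 vs CON (95% CI 0.02 to 2.89) and -1.47 ± 0.67 in AFB1_CUR vs AFB1 (95% CI -2.91 to -0.03), both by edgeR and both called. Both signs turned without that library, to -0.18 ± 0.25 and 0.17 ± 0.25, and neither was called. Both calls were also lost without any 1 of the CON or of the AFB1_CUR libraries, although the estimates stayed at 1.41 or above in AFB1 vs CON and at -1.30 to -1.55 in AFB1_CUR vs AFB1, so that p passed 0.05 with little change in size. DESeq2 gave GSTZ1 no p with all libraries.

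In AFB1 vs CON, 2 of the 8 members were called with all libraries, beside 4.84% of all tested genes. Without AFB1 replicate 1, 1 of 8 was called, beside 1.75%. All 8 estimates then lay below 0, with a median log2 fold change of -0.19 against 0.02 over all tested genes, and only that of LOC121817434 was called. In the same fit the leukocyte markers were estimated higher for 5 of 5 (median 0.72) and the proximal tubule markers lower for 7 of 8 (median -0.33), none of them called, and their part in the members' estimates was not tested. In AFB1_CUR vs AFB1, 2 of 8 were called beside 3.98%, and without that library 1 of 8 beside 0.94%. Without it, the 1 call in both comparisons was LOC121817434. This member passed the filter only through its AFB1_CUR libraries, and the members were chosen with earlier results known. These counts are therefore not a result about the members. In AFB1_CUR vs CON, 0 of 8 were called, beside 0.993%, and beside 1.64% when AFB1 replicate 1 was left out of the shared estimate of spread. The other 6 members were called in no comparison by edgeR with all 15 libraries, whereas DESeq2 called MGST2 in AFB1_CUR vs AFB1.

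**Figure D3:**
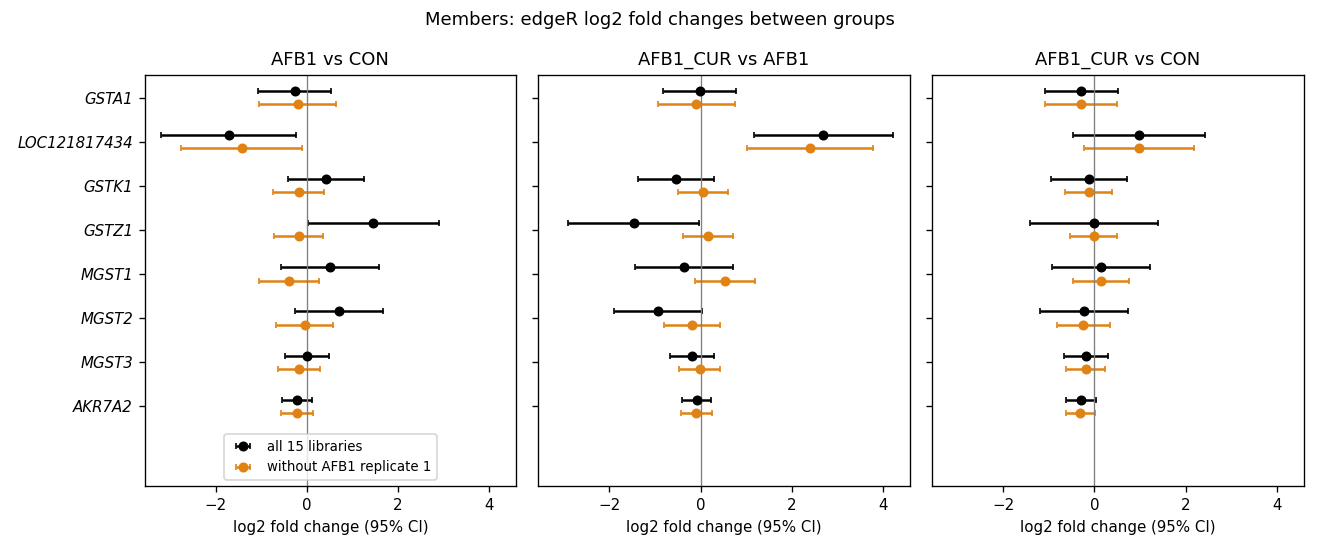
Log2 fold change with its 95% confidence interval (horizontal axis) of the 8 members in AFB1 vs CON, AFB1_CUR vs AFB1 and AFB1_CUR vs CON, from edgeR with all 15 libraries (black) and without AFB1 replicate 1 (orange). LOC121817434 keeps its side of 0 in both fits, and GSTZ1 moves from 1.45 to -0.18 in AFB1 vs CON when that library is left out.

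GSTK1 had 91.7 to 147 FPKM in CON, 72.6 to 122 FPKM in the 4 AFB1 libraries with kidney markers and 62.3 to 135 FPKM in AFB1_CUR. Its log2 fold change without AFB1 replicate 1 was -0.18 (95% CI -0.74 to 0.37) in AFB1 vs CON and 0.06 (95% CI -0.50 to 0.61) in AFB1_CUR vs AFB1, by edgeR.

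MGST1 was the microsomal member with the widest interval in the same comparisons. It had 70.3, 87.6, 101, 143 and 112 FPKM in CON, 43.0, 94.7, 103 and 71.3 FPKM in AFB1 replicates 2 to 5, and 79.8, 106, 172, 150 and 87.4 FPKM in AFB1_CUR. The highest values were in AFB1_CUR, but the groups overlapped. Its log2 fold change in AFB1_CUR vs AFB1 without AFB1 replicate 1 was 0.54 (95% CI -0.13 to 1.20, edgeR) and in AFB1 vs CON it was -0.39 (95% CI -1.06 to 0.27). Neither was called. The former was called, at 0.67, when the replicate number was added as a block. Whether the numbers pair the libraries was not settled.

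MGST2 had 27.2 to 51.8 FPKM in CON, 24.4 to 61.4 FPKM in AFB1 replicates 2 to 5 and 28.8 to 41.7 FPKM in AFB1_CUR. Its log2 fold change in AFB1_CUR vs AFB1 was -0.94 with all libraries (95% CI -1.91 to 0.04, edgeR) and -0.19 without AFB1 replicate 1 (95% CI -0.81 to 0.43). The former was not called, but was called when AFB1 replicate 2, 3 or 4 was left out, at -1.11 to -1.16, and by DESeq2 with all libraries, at -0.95 (DESeq2 adjusted p = 0.799). MGST2 was called in 1 of 26 alternatives in AFB1 vs CON, without AFB1 replicate 2, at 0.92. MGST3 had 5.29 to 10.2 FPKM over all 15 libraries, AFB1 replicate 1 included. Its level in that library, 6.70 FPKM, lay within the range of the others.

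AKR7A2 had 42.9, 42.2, 41.2, 36.1 and 46.1 FPKM in CON. It had 22.2, 27.3, 41.4, 34.5 and 39.9 FPKM in AFB1, and 35.3, 27.9, 36.3, 37.1 and 39.5 FPKM in AFB1_CUR. Of the 5 CON libraries, 4 stood above every AFB1_CUR library in FPKM. In TMM CPM all 5 did, at 75.1 to 92.8 against 46.6 to 74.3, as was so for 0.402% of all tested genes. In AFB1_CUR vs CON its log2 fold change was -0.30 ± 0.15 (95% CI -0.63 to 0.03, edgeR) and was not called. On log2(FPKM + 1) the exact two-sided permutation test gave p = 0.0317, without adjustment, for a difference of -0.24. In AFB1 vs CON the log2 fold change was -0.21 with all libraries (95% CI -0.54 to 0.12, edgeR) and the same without AFB1 replicate 1. By limma it was -0.36 on log2(FPKM + 1) and -0.37 on log2(FPKM + 0.1), not called. By edgeR it was -0.11 without AFB1 replicate 2, a library rich in leukocyte markers, and -0.30 without AFB1 replicate 5. The estimate in AFB1_CUR vs CON was -0.20 without AFB1_CUR replicate 2, the other such library. AKR7A2 had a log2 fold change of -0.09 in AFB1_CUR vs AFB1 with all libraries (95% CI -0.42 to 0.24, edgeR). It was the same without AFB1 replicate 1 (95% CI -0.44 to 0.25). AKR7A2 lies on chromosome 2, and the row described as its relative, aflatoxin B1 aldehyde reductase member 3 (LOC105611550), had 34.8 to 61.6 FPKM in the 14 libraries and was not called in any comparison.

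The libraries with the most leukocyte marker RNA were low for several members. AFB1 replicate 2 and AFB1_CUR replicate 2 were the lowest of the 14 libraries for GSTK1 (72.6 and 62.3 FPKM), GSTZ1 (10.2 and 10.4 FPKM) and AKR7A2 (27.3 and 27.9 FPKM). Over the 14 libraries, the r of log2(FPKM + 1) with the mean of the 5 leukocyte markers was -0.837 for GSTK1, -0.743 for GSTZ1 and -0.788 for AKR7A2. Without the 2 libraries farthest from the median of the markers, these values were -0.483, -0.0651 and -0.211, so the relations of GSTZ1 and AKR7A2 rested on those libraries. For GSTA1 the values were -0.705 and -0.798, and for MGST2 they were -0.776 and -0.828. GSTA1 and MGST2 also had the highest r of the members with the mean of the 8 proximal tubule markers over the 14 libraries, 0.806 and 0.743, or 0.788 and 0.751 after each group's own mean was subtracted. This order did not hold without the 2 farthest libraries, where GSTZ1 was highest at 0.718, GSTA1 had 0.638 and MGST2 had 0.557. LOC121817434 had an r of 0.142 with the proximal tubule markers, which was 0.607 without the 2 farthest libraries. Its r with the leukocyte markers was -0.0394, and 0.126 without the 2 farthest. The part of tissue make-up in these levels was not tested.

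The members also varied with each other. Of the 28 pairs of members, 25 had a positive r over the 14 libraries, with a median of 0.561, where 58.5% of all pairs of tested genes were positive, with a median of 0.0944. Without AFB1 replicate 2 and AFB1_CUR replicate 2, the libraries rich in leukocyte markers, 22 pairs were positive and the median was 0.367, against 56.5% and 0.0687 over all pairs. Without them GSTZ1 with AKR7A2 went from 0.679 to -0.0402 and GSTK1 with AKR7A2 from 0.707 to 0.173. The highest was GSTA1 with MGST2 (r = 0.881, rho = 0.934), followed by GSTK1 with MGST3 (r = 0.832, rho = 0.903), and these were 0.841 and 0.793 without those 2 libraries. The 3 negative pairs over the 14 libraries all held LOC121817434. Beyond the members, the genes most like GSTA1 were GALNT11, which starts mucin-type O-glycosylation (r = 0.934), SLC25A44, a mitochondrial carrier of branched-chain amino acids (r = 0.921), and CERS2, a ceramide synthase (r = 0.912). Those most like AKR7A2 were DCXR, the L-xylulose reductase (r = 0.903), the theta class row LOC101111664 (r = 0.886) and TRAF4, an adaptor of TNF receptors (r = 0.875).

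AFB1 replicate 1 had its own set of transferases. Among the members, GSTK1 was 2.07 times, GSTZ1 6.12 times, MGST1 2.64 times and MGST2 2.99 times the median of the other 14 libraries, each above all of them. In FPKM, GSTA1, LOC121817434 and AKR7A2 lay below all of them, AKR7A2 at 0.581 times the median. In TMM CPM only LOC121817434 did so, whereas GSTA1 (125 against 89.2 to 387 CPM) and AKR7A2 (62.4 against 46.6 to 92.8 CPM) lay within the range, and the 4 higher members stayed above it. Of 24 further rows described as glutathione S-transferase or aflatoxin B1 aldehyde reductase, 10 lay above, 6 below and 8 within the range of the others in FPKM, and 11, 5 and 8 in TMM CPM. The rows named in the rest of this paragraph were chosen after their values were seen. The mu class row LOC101107401 had 1508 FPKM there against 2.66 to 28.9 FPKM elsewhere, and the theta class row LOC101118990 had 126 FPKM against 2.33 to 13.2 FPKM. The rows described as GST P (LOC105607169) and as mu 3 (LOC100037663) lay the other way, at 23.1 FPKM against 63.9 to 136 FPKM and at 6.41 FPKM against 19.9 to 84.5 FPKM.

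**Figure D4:**
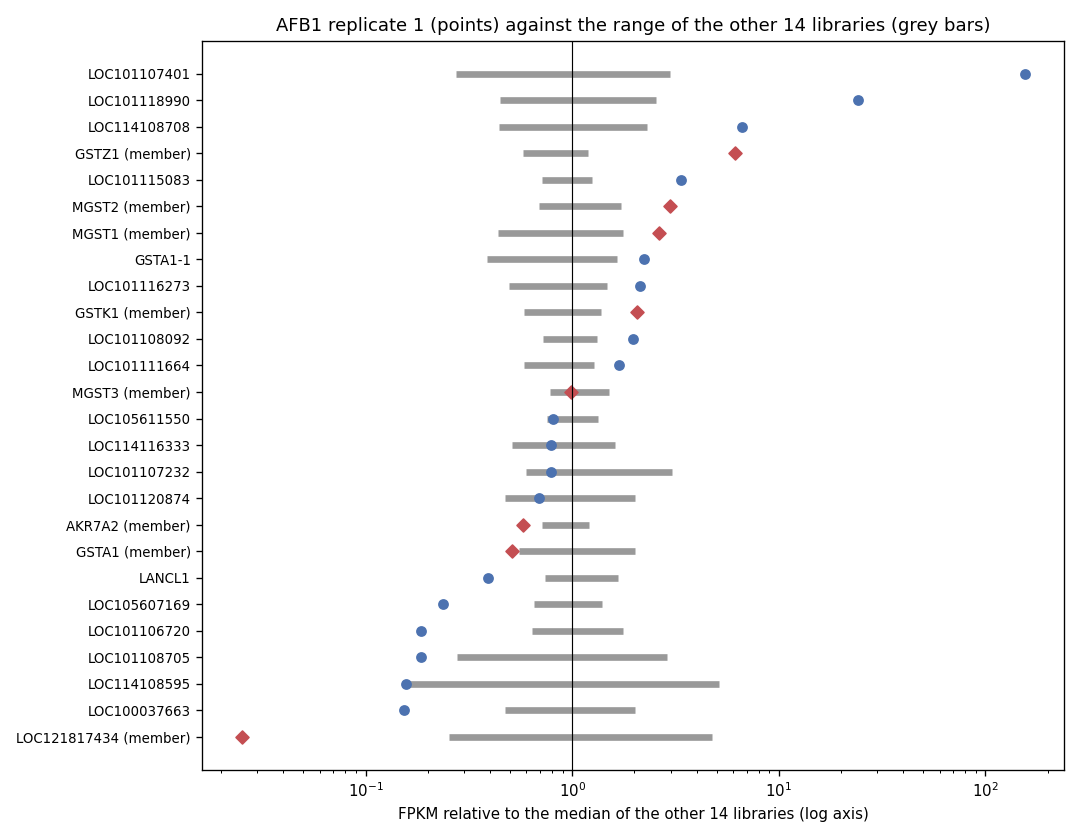
FPKM of AFB1 replicate 1 (points; diamonds for the members) relative to the median of the other 14 libraries (horizontal log axis), for the transferase and aldehyde reductase rows with a median of at least 1 FPKM. Grey bars give the range of the other 14 libraries. LOC101107401 lies farthest to the right and LOC121817434 farthest to the left.

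The same library set most calls among these 24 rows, of which 20 were tested. With all libraries, LOC101107401 and LOC101118990 were called in AFB1 vs CON, beside 4.84% of all tested genes. In AFB1_CUR vs AFB1, 5 rows were called, beside 3.98%, and these were the same 2, GSTA1-1, LOC114108708 and LOC114108595. Without AFB1 replicate 1, none was called in AFB1 vs CON, beside 1.75%, and LOC114108595 alone in AFB1_CUR vs AFB1, beside 0.94%. No row of the 20 was called in AFB1_CUR vs CON in either fit, beside 0.993% and 1.64%. GSTA1-1, described as GST A2 and the most abundant of all these rows in CON at 306 ± 32.9 FPKM, had a log2 fold change of -1.10 in AFB1_CUR vs AFB1 (SE 0.42, edgeR) and of -0.57 without that library (SE 0.32, not called). GSTA1-1 and LOC121817434, which lie 5146 bases apart, had estimates of opposite sign in this comparison.

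The steps before and after conjugation were read from lists of 86 further genes, of which 57 had a row and 46 were tested. In AFB1 vs CON, 2 of the 46 were called with all libraries, beside 4.84% of all tested genes, and 1 without AFB1 replicate 1, beside 1.75%. In AFB1_CUR vs AFB1 the numbers were 2, beside 3.98%, and 0, beside 0.94%. The comparison AFB1_CUR vs CON gave 2 and 2, beside 0.993% and 1.64%. With so few calls, these counts are not a result about the lists. The median log2 fold change of the 46 was 0.04, -0.12 and -0.06 in these comparisons without AFB1 replicate 1, against 0.02, 0.00 and 0.00 over all tested genes.

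ANPEP, aminopeptidase N of the tubule brush border, which trims glutathione conjugates on the way to mercapturates, was the listed gene called most often. It had 87.1, 97.8, 89.5, 156 and 218 FPKM in CON, 29.4, 41.2, 89.4, 34.7 and 87.2 FPKM in AFB1, and 87.6, 52.4, 66.4, 38.9 and 62.4 FPKM in AFB1_CUR. The CON libraries stood highest. In FPKM they overlapped with both other groups through CON replicate 1. In TMM CPM they all stood above AFB1_CUR, as was so for 0.402% of all tested genes, and ANPEP was named because it was called. Its log2 fold change was -1.10 ± 0.36 in AFB1 vs CON (95% CI -1.87 to -0.33; edgeR adjusted p = 0.596) and -1.14 ± 0.36 in AFB1_CUR vs CON (95% CI -1.91 to -0.37; edgeR adjusted p = 0.9996). Without AFB1 replicate 1 these were -1.03 and -1.14, and both calls held in 26 of 26 alternatives. It was the 1 of 8 tested genes of the mercapturate list that was called in these comparisons, which share the CON libraries. The proximal tubule markers, which mark the cells that hold ANPEP, were not called in any comparison. Without AFB1 replicate 1 their estimates were below 0 for 7 of 8 in AFB1 vs CON and for 8 of 8 in AFB1_CUR vs CON. Their median log2 fold changes were -0.33 and -0.24. In the same fit the leukocyte markers were estimated higher for 5 of 5 in both comparisons, with medians of 0.72 and 0.93. Of these, CD68 was called in AFB1_CUR vs CON in that fit, and in AFB1 vs CON with all libraries. The part of tissue make-up in the ANPEP estimates was not tested.

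EPHX1, the microsomal epoxide hydrolase, had 668 FPKM in AFB1 replicate 1 and 46.3 to 130 FPKM elsewhere. It was called in AFB1 vs CON (log2 fold change 1.57) and in AFB1_CUR vs AFB1 (-1.93) only with that library, and without it the estimates were -0.27 and -0.09. The first of these calls was also lost without any 1 of the CON libraries or of AFB1_CUR replicates 1, 3, 4 and 5, at estimates of 1.47 to 1.72. LTC4S, the leukotriene C4 synthase of the MAPEG family, had 30.6 FPKM there and 2.35 to 9.42 FPKM elsewhere, and its call in AFB1_CUR vs AFB1 (-1.93) was likewise lost (-0.24). ALOX5AP, the MAPEG protein that presents arachidonic acid to 5-lipoxygenase in leukocytes, was called in AFB1_CUR vs CON (1.32, 95% CI 0.07 to 2.57, edgeR). This came with AFB1_CUR replicate 2, the library with the most leukocyte marker RNA, which had 7.12 FPKM against 0.346 to 2.56 FPKM elsewhere, and the estimate without it was 0.35. The call was also lost without CON replicate 3, 4 or 5, at estimates of 1.29, 1.22 and 1.13, which stayed near that with all libraries.

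The remaining lists held no call. This was so for 11 tested genes of glutathione synthesis and recycling, such as GCLC and GSR, for 6 exporters of conjugates, for 4 further aldo-keto reductases and for 10 genes of the NRF2 axis, in each of the comparisons with and without AFB1 replicate 1. NRF2 is the transcription factor that drives many transferase genes. The median log2 fold change of its axis was 0.18 in AFB1 vs CON and -0.17 in AFB1_CUR vs AFB1 without AFB1 replicate 1, with 8 of 10 estimates above 0 in the first and 10 of 10 below 0 in the second, none of them called. These comparisons share the AFB1 libraries, and no test of the list was made.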

How the data were processed

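RNA labelled as kidney from 15 sheep (CON, AFB1 and AFB1_CUR, n = 5 each) was analysed, grouped by sample title. AFB1 replicate 1 nearly lacked the kidney markers. The sheep were housed in shared pens, which the labels do not give. Per the labels, the libraries were strand-marked and paired-end, and the submitters' processing notes name cutadapt 1.9, HISAT2 2.2.1 and StringTie 2.1.6. The authors deposited a raw read count and an FPKM value per gene and library. The sources used here do not give the counting tool. The FPKM values were used for levels and for the comparison between genes.

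Of 25592 genes, the 13193 that reached 1 FPKM in 5 or more libraries were tested on the counts with edgeR 4.0.16 (TMM, quasi-likelihood, R 4.3.3), with all 15 libraries in 1 model and Benjamini-Hochberg adjustment over all tested genes. The test was first tried on simulated counts with the same spread for all genes and no library lacking kidney markers. That trial therefore does not cover a library such as AFB1 replicate 1. Calls required a fold change over 1.5 and p under 0.05, unadjusted, where the study used DESeq2. Alternatives used DESeq2 1.42.0, limma 3.58.1 on log2(FPKM + 1) or log2(FPKM + 0.1), voom weights, no filter, a replicate block, fewer libraries or summed neighbours. Intervals cover the spread between libraries, with depths of 50255295 to 68747047.

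The members and lists were chosen with earlier results of these data known. Named genes were all members, list genes called in any comparison, and the 3 genes with the highest r to GSTA1, LOC121817434 and AKR7A2. Other rows were named after their values were seen. Gene descriptions come from the deposited table.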

Additional observations from a re-analysis of the deposited data

Results flagged for a closer look

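The level of each member in each group was searched for a library that stood apart, by Dixon's gap criterion, over 32 groups, the AFB1 group with and without replicate 1 among them. It flagged 3, where chance flags about 1 in 20 groups. GSTZ1 in AFB1 replicate 1 (108 FPKM) and MGST1 in AFB1 replicate 1 (258 FPKM) stood above the other AFB1 libraries, and both lie in the library without kidney markers. GSTZ1 in AFB1_CUR replicate 2 (10.4 FPKM) stood below the other AFB1_CUR libraries, in the library with the most leukocyte marker RNA, and its share in the low level was not tested.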

How the results depend on the processing

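The call of LOC121817434 in AFB1_CUR vs AFB1 held in 25 of 25 alternatives, most of which use the filter that this gene passed only through its AFB1_CUR libraries, and those of ANPEP against CON in 26 of 26. The call of LOC121817434 in AFB1 vs CON held in 21 of 25 and kept its sign in all, and that of LOC114108595 in AFB1_CUR vs AFB1 held in 25 of 26. Whether the replicate numbers pair the libraries was not settled, as 8 of 15 same-number pairs correlated above 0.1 (-0.308 to 0.482). Alternatives marked as added were chosen after seeing the data, and the causes of the changes below were not tested. LOC121817434 had counts of 12 to 306 in the AFB1 libraries, so its differences rest on the fewest reads of any member. The precision of all values is limited by 5 libraries per group.

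The counts of called genes are given in the order AFB1 vs CON, AFB1_CUR vs AFB1 and AFB1_CUR vs CON, where the reported counts were 639, 525 and 131. Without the filter on low values they were 1778, 1597 and 699. On log2(FPKM + 1), limma called 258, 184 and 50, and on log2(FPKM + 0.1) it called 351 and 291 in the first pair. With voom and sample quality weights they were 298, 327 and 206. The replicate block gave 327 and 175 in the first pair, and with the block and AFB1 replicate 1 left out (added) 229, 151 and 283. With the compared groups alone they were 302 and 225 in the last pair, and with DESeq2 and AFB1 replicate 1 left out (added) 282, 154 and 256. With 1 library left out in turn, they ran from 231 to 959, from 124 to 924 and from 65 to 216. The lowest count of the first pair was without AFB1 replicate 1, and the highest were without AFB1 replicate 5 and AFB1 replicate 2.

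The members called numbered 2, 2 and 0. In AFB1 vs CON, 1 was called with DESeq2 (which gave GSTZ1 no p), with DESeq2 without AFB1 replicate 1, with the neighbours summed, with the compared groups alone, on log2(FPKM + 0.1) and with the replicate block with or without that library, and 0 were called on log2(FPKM + 1) or with voom. In AFB1_CUR vs AFB1, 1 was called in the same settings except DESeq2 with all libraries and the block without AFB1 replicate 1, where MGST2 (-0.95) and MGST1 (0.67) in turn were called beside LOC121817434, and 1 also on log2(FPKM + 1) and with voom. In AFB1_CUR vs CON, 1 was called, LOC121817434, on log2(FPKM + 1), with the replicate block with or without that library, and with voom. With 1 library left out the numbers ran from 0 to 3, 1 to 3 and 0 to 1.

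Sign changes were as follows, on the log2 scale. In AFB1 vs CON with DESeq2 without AFB1 replicate 1, the values were -0.27 for EPHX1, -0.18 for GSTK1, -0.18 for GSTZ1, -0.33 for LTC4S, -0.39 for MGST1 and -0.04 for MGST2. In the block without that library they were -0.20, -0.26, -0.23, -0.16, -0.55 and -0.09, and with voom -0.10, -0.12, -0.25, -0.16, -0.21 and -0.07, in the same order. MGST1 was -0.07 by limma on both log2 scales, and MGST3 was 0.00 with DESeq2 or its size factors. In AFB1_CUR vs AFB1 without AFB1 replicate 1, DESeq2 gave 0.05 for GSTK1, 0.16 for GSTZ1 and 0.54 for MGST1, and the block gave 0.09, 0.14 and 0.67 for these and 0.13 for GSTA1. With voom, they were 0.23, 0.35 and 0.56, with 0.39 for GSTA1, 0.08 for MGST2, 0.16 for MGST3 and -0.50 for ALOX5AP. By limma on log2(FPKM + 1) they were 0.34 for GSTA1, 0.26 for MGST1, 0.04 for MGST3, 0.11 for AKR7A2 and 0.23 for ANPEP, and on log2(FPKM + 0.1) 0.35, 0.26, 0.05, 0.12 and 0.23. With the replicate block, GSTA1 was 0.16 and ANPEP 0.05, and GSTA1 summed with its neighbour was 0.10. In AFB1_CUR vs CON with voom, GSTA1, MGST2 and MGST3 were 0.01, GSTZ1 was 0.10 and GSTK1 0.11, and GSTZ1 was 0.00 on log2(FPKM + 1).

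With 1 library left out, the estimates that changed sign ran in AFB1 vs CON from -0.27 to 1.82 for EPHX1, -0.18 to 0.60 for GSTK1, -0.18 to 1.72 for GSTZ1, -0.33 to 1.74 for LTC4S, -0.39 to 0.75 for MGST1, -0.05 to 0.92 for MGST2 and -0.16 to 0.13 for MGST3. In AFB1_CUR vs AFB1 they ran from -0.19 to 0.01 for AKR7A2, -0.39 to 0.90 for ALOX5AP, -0.23 to 0.19 for ANPEP, -0.19 to 0.47 for GSTA1, -0.73 to 0.06 for GSTK1, -1.73 to 0.17 for GSTZ1 and -0.60 to 0.54 for MGST1. In AFB1_CUR vs CON they ran from -0.20 to 0.05 for GSTK1, -0.08 to 0.15 for GSTZ1 and -0.03 to 0.31 for MGST1.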
